A study of Homo sapiens with 6 samples.

Results

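The 2 libraries that carry replicate number 2, siControl replicate 2 and siSRPX2-1 replicate 2, were compared with the other 4 libraries of the same experiment, replicates 1 and 3 of each siRNA. They make up 2 of the 6 libraries. The pair was chosen by measured values, because expression over all genes had set these libraries apart from the rest, so every difference between them and the other libraries is given as a description of how they differed. The comparison covered the 13317 of 31348 annotated genes with a mean of at least 0.5 FPKM (fragments scaled by transcript length and library size) over the 6 libraries.

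All 6 libraries were bulk RNA-seq of TPC1, a human papillary thyroid carcinoma line that carries a RET rearrangement with CCDC6. The siControl group was transfected with a control siRNA and the siSRPX2-1 group with 1 siRNA against SRPX2, a secreted sushi-repeat protein, and both groups hold 3 libraries. The labels place all samples at day 2 and name an adipogenic differentiation and DMEM medium, whereas the methods of the study describe an siRNA transfection of TPC1 kept in RPMI-1640, and the files do not settle which holds. The line is 1 cell line, and no source used here says whether a replicate number stands for a culture, a passage, a transfection or a day. The 2 replicate 2 libraries share that number, so at the level of the number this is 1 against 2, and the calls below treat the libraries as independent.

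As background, cells that enter the cell cycle switch on their genes in waves. E2F factors drive the enzymes that copy DNA ahead of S phase, and the MuvB complex with B-MYB and FOXM1 drives the genes of mitosis through a promoter element called CHR. Cells that run short of serum, nutrients or space often leave the cycle, FOXO factors then raise a set of growth-restraining genes, and dense cultures build up secreted matrix. NF-kappaB is a separate switch that drives chemokines, cytokines and its own inhibitors when cells meet inflammatory signals, and IL6 and CXCL8 are its textbook targets.

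The promoters of 4 genes are shown because each stands for a gene group whose median differed by more than 1 on the log2 scale between the replicate 2 libraries and the others, and because each holds the element by which that group is classically known. All are RefSeq promoters of GRCh38.p14, 250 bases before to 50 bases after the annotated start, 5′ to 3′ on the strand of the gene. CXCL8, the neutrophil chemokine interleukin 8, lies on chromosome 4 with its promoter at chr4:73740319-73740618 on the plus strand, and IL6, the cytokine interleukin 6, has its promoter at chr7:22726950-22727249 on the plus strand. Capitals in these 2 mark a kappaB-like motif, searched as GGNNTTTCC on both strands.
CXCL8: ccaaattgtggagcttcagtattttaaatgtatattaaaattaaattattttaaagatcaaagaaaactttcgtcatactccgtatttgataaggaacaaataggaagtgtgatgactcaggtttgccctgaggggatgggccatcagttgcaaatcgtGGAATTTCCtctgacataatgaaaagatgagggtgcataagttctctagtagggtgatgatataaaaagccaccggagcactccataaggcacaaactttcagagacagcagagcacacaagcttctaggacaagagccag
IL6: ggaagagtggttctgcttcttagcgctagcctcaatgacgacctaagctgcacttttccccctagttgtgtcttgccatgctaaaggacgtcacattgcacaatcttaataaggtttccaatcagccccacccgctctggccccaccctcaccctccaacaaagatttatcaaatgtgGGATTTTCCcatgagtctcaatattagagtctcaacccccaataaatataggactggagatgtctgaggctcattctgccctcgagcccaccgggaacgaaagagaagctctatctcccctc
CLSPN encodes claspin, an adaptor at replication forks, with its promoter at chr1:35769929-35770228 on the minus strand, and capitals mark an E2F-type motif, searched as TTTNNCGC on both strands. BUB1B encodes a kinase of the spindle checkpoint, with its promoter at chr15:40160819-40161118 on the plus strand, and capitals mark the CHR element, searched as TTTGAA on both strands.
CLSPN: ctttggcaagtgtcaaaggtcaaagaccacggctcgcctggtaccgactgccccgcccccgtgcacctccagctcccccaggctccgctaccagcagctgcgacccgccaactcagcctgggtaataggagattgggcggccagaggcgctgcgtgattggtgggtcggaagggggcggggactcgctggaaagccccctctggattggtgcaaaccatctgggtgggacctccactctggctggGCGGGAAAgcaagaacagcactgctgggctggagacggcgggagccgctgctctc
BUB1B: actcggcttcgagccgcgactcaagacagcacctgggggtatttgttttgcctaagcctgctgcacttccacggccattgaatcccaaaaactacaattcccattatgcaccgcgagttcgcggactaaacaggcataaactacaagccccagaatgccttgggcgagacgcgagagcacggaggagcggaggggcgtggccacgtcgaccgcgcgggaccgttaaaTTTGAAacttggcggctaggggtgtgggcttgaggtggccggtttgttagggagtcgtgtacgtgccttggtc

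Counted from the annotated start as 0, the motif begins at position -91 in CXCL8, at -72 in IL6, at -5 in CLSPN and at -23 in BUB1B. Among 9370 tested genes with a RefSeq promoter of this length 13.3% held the E2F-type motif, 13.2% the CHR element and 9.27% the kappaB-like motif, and over all 27305 genes with such a promoter the shares were 8.23%, 18.2% and 7.61%. Of 37 DNA replication genes called higher in replicate 2 with a promoter in the table, 23 held the E2F-type motif (62.2%) and 2 held CHR. The mitosis genes showed the opposite split, since 25 of 34 held CHR (73.5%) and 4 held the E2F-type motif. The kappaB-like motif was in 5 of 8 chemokine and cytokine promoters and 8 of 10 promoters of the NF-kappaB subunits and feedback genes, all of genes called lower. These groups are classically known for the elements, and uncalled members were not counted. The list shares therefore describe the lists and say nothing about replicate 2. Over all called genes the shares lay much closer together: the E2F-type motif was in 19.3% of promoters of genes called higher and 10.6% of those called lower, CHR in 18.2% and 11.5%, and the kappaB-like motif in 9.13% and 10.1%. An AP-1 motif (TGANTCA) was in 5.27% of promoters called higher and 9.01% of those called lower, and a TATA box (TATAAA, both strands) in 5.94% and 9.21%. The E2F-type and CHR motifs were added after the expression values had been seen, the motifs were counted separately and may overlap, and a match is a run of letters and not a shown binding site.

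The replicate 2 libraries differed broadly from the others. edgeR called 4062 of 13317 genes at an adjusted p under 0.05, of which 2003 were higher (15.0% of those tested) and 2059 lower (15.5%). In CPM (read counts scaled to a common library size with TMM factors), both replicate 2 libraries lay above all 4 others for 3677 genes (27.6%) and below all 4 for 3721 (27.9%). The first principal component of log2 CPM carried 51.0% of the variance. On it the replicate 2 libraries stood at 49.8 (siControl) and 54.5 (siSRPX2-1), and the other 4 between -32.6 and -20.1. Since all genes enter that axis, the separation describes the choice of the pair.

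The difference ran the same way under both siRNAs. Across all tested genes, the difference of replicate 2 from the mean of replicates 1 and 3 within siControl and that within siSRPX2-1 had a Pearson r of 0.687 and a Spearman rho of 0.819, across genes that share the libraries and depth of each group. Of the called genes 4061 had the same sign in both, which the call itself favours, and the exception, AL035461, was read in siSRPX2-1 replicate 2 alone. The called gene just inside the threshold by adjusted p was SNX13 with a log2 difference of -0.30, and the first outside it was CAPN1 with -0.24. The calls lean on both libraries: with siControl replicate 2 left out, 276 genes were called, and with siSRPX2-1 replicate 2 left out, 683 were called. With each replicate number as a term of its own (replicate block), 6778 genes were called, 3381 higher and 3397 lower. On the deposited FPKM, limma on log2(FPKM + 1) called 2483 higher and 1490 lower, so the balance between directions depends on the values used.

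**Figure D1:**
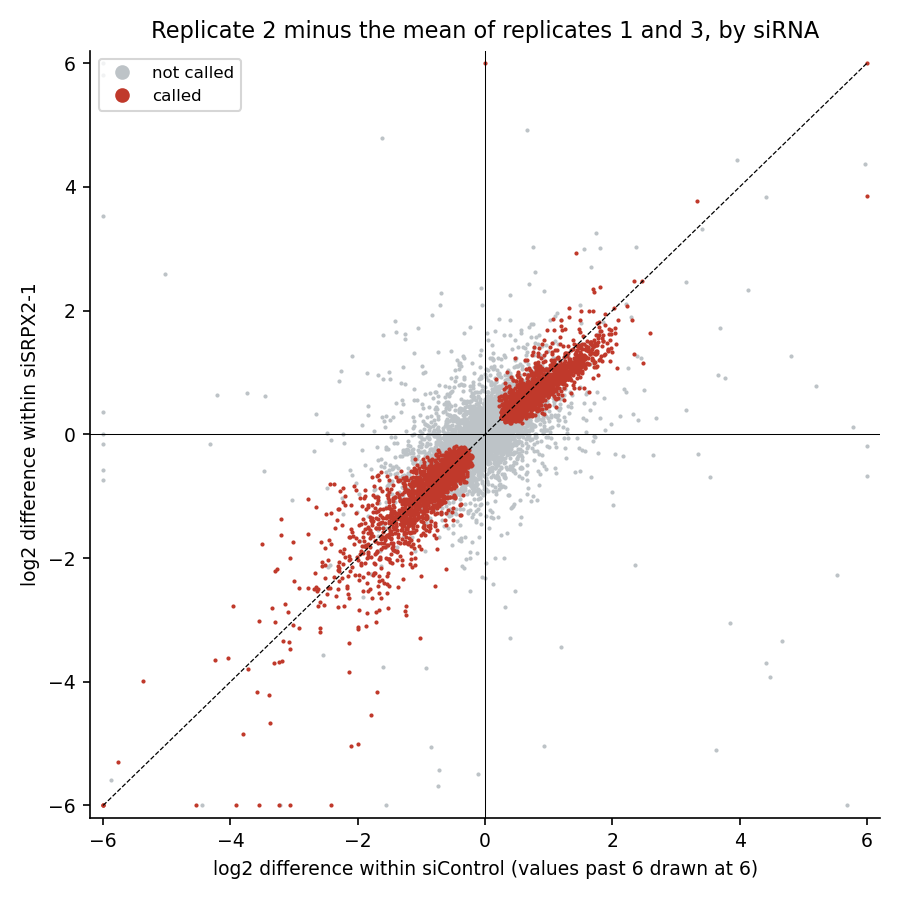
Each point is 1 of 13317 tested genes, with the log2 CPM difference of replicate 2 from the mean of replicates 1 and 3 within siControl on the x axis and within siSRPX2-1 on the y axis, both drawn to at most 6. Red points are the 4062 called genes, of which 4061 lie in the quadrants where both groups have the same sign, mostly along the dashed line of equality.

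DNA replication genes were higher in replicate 2 almost without exception. Of 44 genes in the list, all passed the FPKM filter, 43 were called higher and none lower, against 15.0% called higher over all tested genes, and the median log2 difference was 1.28 against -0.02 over all tested genes. RRM2, the regulated subunit of ribonucleotide reductase that makes DNA precursors, had 467.5 CPM in siControl replicate 2 and 426.7 in siSRPX2-1 replicate 2. The same gene had 86.5, 103.6, 115.9 and 121.1 CPM in siControl replicates 1 and 3 and siSRPX2-1 replicates 1 and 3. The 2 groups of libraries were far apart, and the log2 difference was 2.08 ± 0.127 (SE), 4.22-fold. CDC45, a part of the helicase that opens the DNA, had 32.1 and 33.5 CPM in replicate 2 and 6.61, 7.07, 7.03 and 9.04 in the other libraries, a log2 difference of 2.14 ± 0.141. CLSPN, whose promoter is shown above, had 49.5 and 47.4 CPM against 11.5, 12.6, 14.0 and 14.8, a difference of 1.88 ± 0.117.

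Members at each step of replication were higher. The loaders and origin factors ORC1, ORC6, CDC6 and MCM10 differed by 1.58, 1.68, 1.64 and 1.68 on the log2 scale, and the helicase subunits MCM2 to MCM7 by 1.13 to 1.52. PCNA, the sliding clamp of the polymerases, had 248.6 and 230.9 CPM in replicate 2 and 81.4 to 116.1 in the others, and FEN1, which trims lagging-strand fragments, differed by 1.67. Of the nucleotide enzymes, RRM1 differed by 1.35 ± 0.0866 and TYMS by 1.39. CCNE1, cyclin E1, was the member not called, at 7.99 and 11.0 CPM in replicate 2 and 3.96 to 8.05 in the other libraries, so the groups overlapped. The list had 10 calls without siControl replicate 2 and 36 without siSRPX2-1 replicate 2, all of them higher, and had 44 with the replicate block.

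Mitosis genes were higher as well. All 41 genes of the list passed the filter, 40 were called higher and none lower, and the median log2 difference was 1.23. BUB1B had 151.8 and 143.1 CPM in replicate 2 and 51.1, 48.7, 53.1 and 57.3 CPM in the other libraries, a log2 difference of 1.49 ± 0.0877. PLK1, a kinase that steers entry into and passage through mitosis, had 188.5 and 156.6 CPM against 61.2 to 71.2, a difference of 1.38 ± 0.108. The libraries of the 2 sets did not overlap for either kinase. MKI67, which encodes the proliferation marker Ki-67, had 964.2 and 864.9 CPM against 295.1 to 379.1, and TOP2A, the topoisomerase that untangles chromosomes, 608.4 and 495.3 against 196.0 to 276.8.

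The same held for regulators of mitosis and for the kinetochore. FOXM1, the transcription factor of this group, differed by 1.32 ± 0.0918, the cyclin CCNA2 by 1.55 ± 0.161, the Aurora kinase AURKB by 1.55 ± 0.139, and the kinetochore protein NDC80 by 1.59 ± 0.229. ZWINT, a kinetochore protein that is not in the list, differed by 1.56 ± 0.149. PTTG1, securin, was not called, at 85.6 and 75.5 CPM in replicate 2 and 37.9 to 85.9 in the others. Leaving out siControl replicate 2 gave 11 called mitosis genes and leaving out siSRPX2-1 replicate 2 gave 29, all higher. For replicate 1 minus replicate 3 the median log2 difference was -0.15 for mitosis, with 8 of the 41 genes called lower (NDC80 among them, at -0.64) and 1 higher against 7.30% and 8.81% over all tested genes, and -0.04 for DNA replication, with 2 of the 44 called lower and 1 higher. ZWINT was also called lower there, at -0.39.

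**Figure D2:**
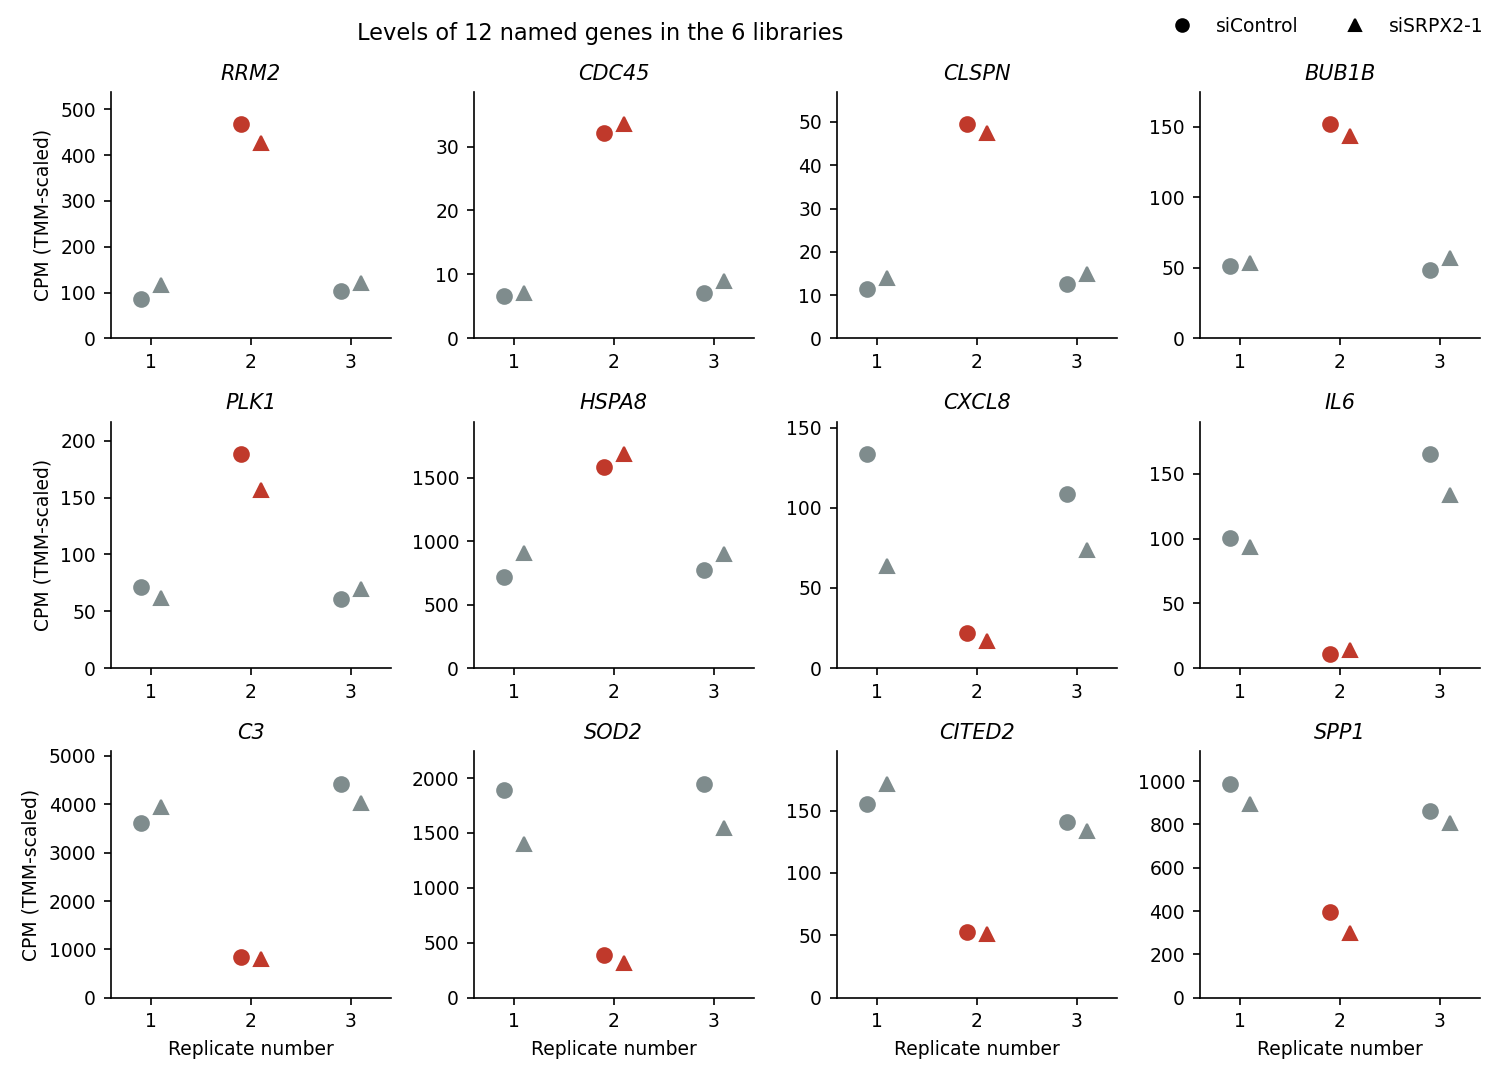
TMM-scaled CPM of 12 named genes (y axis, from 0) by replicate number (x axis), with circles for siControl, triangles for siSRPX2-1 and red for replicate 2. For RRM2, CDC45, CLSPN, BUB1B, PLK1 and HSPA8 both red points lie above the 4 grey ones, and for CXCL8, IL6, C3, SOD2, CITED2 and SPP1 both lie below them.

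The regulators of G1 had calls in both directions. Of 20 tested members, 8 were called higher (40.0%) and 4 lower (20.0%), against 15.0% and 15.5% over all tested genes. The share called lower was thus near that over all genes. The 8 included CDK2 at 108.3 and 104.2 CPM against 45.0 to 52.0, the S-phase cyclin CCNE2 (log2 difference 1.75 ± 0.203) and CDK4 and CDK6 (0.46 and 0.41). The other 4 called higher were the CDK inhibitor CDKN2C (0.58 ± 0.101), the retinoblastoma protein RB1 (0.37), its relative RBL1 (1.06) and E2F4 (0.41). The 4 called lower were the inhibitors CDKN2B, CDKN1C and CDKN1B and the retinoblastoma relative RBL2. CDKN1C, p57, had 1.09 and 0.664 CPM in replicate 2 and 3.34 to 3.71 in the other libraries, and CDKN2B, p15, had 5.92 and 7.78 against 16.2 to 44.7, with log2 differences of -2.05 ± 0.296 and -2.18 ± 0.467. CDKN2B was also called lower in replicate 1 than in replicate 3 (-1.1). CDKN1A, the p53-induced inhibitor p21, stood at 163.9 and 148.4 CPM, within the range of 143.5 to 170.2 of the other libraries. CCND1, cyclin D1, was not called, with a log2 difference of 0.19. With either replicate 2 library left out the list had 1 call.

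Replication-dependent histone genes, whose mRNAs end without a poly(A) tail, did not follow. Of 65 listed genes 52 were in the table and 14 passed the filter. None of the 14 was called higher and 1 lower, H3C6, at 0.701 and 0.474 CPM against 2.17 to 5.15, and the list median was -0.59. The same 14 had a median of -0.78 for replicate 1 minus replicate 3. How the RNA was selected for sequencing is not given in the sources used here, and near-identical histone copies can share reads, so these values are uncertain.

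Most heat shock genes were also higher. Of 16 tested heat shock genes, 10 were called higher (62.5%) and 2 lower (12.5%), with a median log2 difference of 0.54. Over all tested genes 15.0% were called higher and 15.5% lower, so the share called lower was near that over all genes. HSPA8, the constitutive Hsc70, had 1586.7 and 1688.1 CPM in replicate 2 and 717.0 to 907.9 in the others, and HSPD1, the mitochondrial Hsp60, had 644.1 and 645.1 against 274.5 to 349.2. No other library reached the replicate 2 levels, and the log2 difference of HSPD1 was 1.05 ± 0.105. The small heat shock genes HSPB8 and HSPB1 went the other way, at -1.38 ± 0.17 and -1.33, while the stress-inducible HSPA1A and HSPA1B, a near-identical pair whose reads may be split, were not called (0.43 and 0.40). None of the 16 was called without siControl replicate 2, and without siSRPX2-1 replicate 2, 3 were higher and 1 lower. Outside the list, ODC1, the first enzyme of polyamine synthesis, had 138.2 and 163.7 CPM against 37.6 to 52.1, and DNAJC9, a histone chaperone, 94.4 and 100.3 against 22.7 to 31.6.

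**Figure D3:**
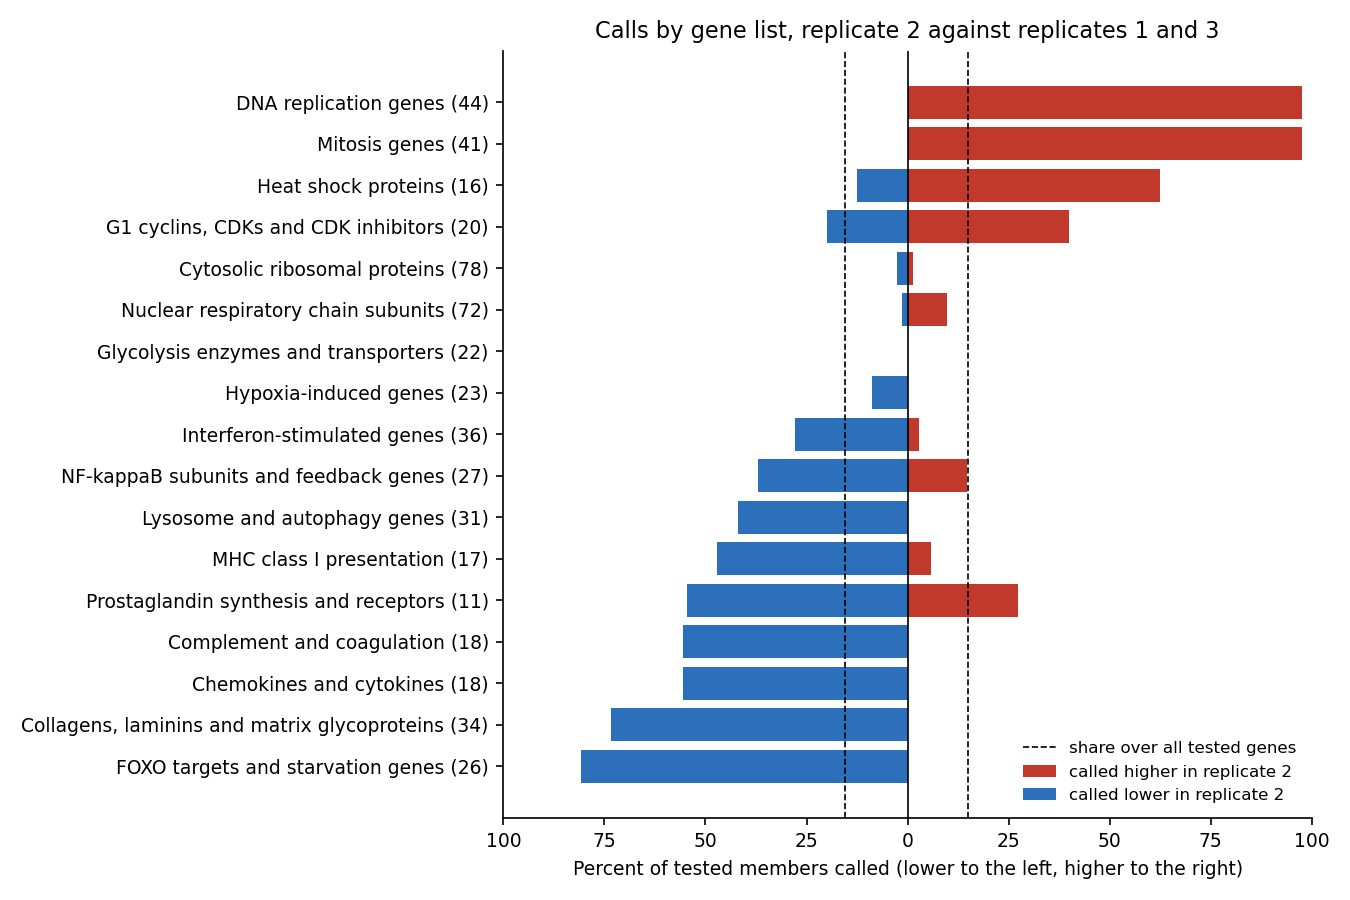
Percent of the tested members of 17 gene lists called lower (blue, to the left) or higher (red, to the right) in replicate 2, with the number of tested members in brackets. Dashed lines give the share over all tested genes, 15.5% lower and 15.0% higher. DNA replication and mitosis lie at the far right, the FOXO and matrix lists at the far left.

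Inflammatory genes were lower in replicate 2. Of 36 listed chemokines and cytokines 18 passed the filter, 10 were called lower and none higher, against 15.5% lower over all tested genes, with a median of -1.29. IL6 had 11.0 CPM in siControl replicate 2 and 13.8 in siSRPX2-1 replicate 2. In the other libraries it had 100.2, 165.5, 93.4 and 133.9 CPM, so that no library lay between 13.8 and 93.4, and the log2 difference was -3.31 ± 0.301, 9.90-fold. CXCL8 had 21.7 and 16.6 CPM in replicate 2, 133.6 and 108.5 in siControl replicates 1 and 3, and 63.5 and 73.4 in siSRPX2-1 replicates 1 and 3. The replicate 2 libraries were the lowest, by -2.26 ± 0.162 on the log2 scale. The neutrophil chemokine CXCL1 differed by -1.66 ± 0.247, the death ligand TNFSF10 by -2.33 ± 0.177, the macrophage growth factor CSF1 by -1.10 ± 0.135 and TNF, present at 1.64 to 11.4 CPM, by -1.81 ± 0.341. The list had 3 genes called lower without siControl replicate 2 and 5 without siSRPX2-1 replicate 2.

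NF-kappaB subunits and feedback genes were lower in part. Of 27 tested genes 10 were called lower (37.0%) and 4 higher (14.8%), against 15.5% and 15.0% over all tested genes. The share called higher was thus near that over all genes. The remaining 13 were not called, and the median was -0.17. The mitochondrial superoxide dismutase SOD2, an NF-kappaB target, had 391.3 and 316.7 CPM in replicate 2 against 1395.8 to 1949.7, a log2 difference of -2.26 ± 0.101. The inhibitor NFKBIA and the list member NFKBIZ differed by -1.36 ± 0.19 and -1.49 ± 0.092, the deubiquitinase TNFAIP3 by -1.34 ± 0.21 and the adhesion molecule ICAM1 by -1.46 ± 0.176. The subunits NFKB1 (0.00), RELA (-0.11), REL (-0.24) and RELB (-0.71) were not called, NFKB2 was called lower (-0.49), and the 4 called higher were the kinase CHUK, the inhibitor NFKBIB and the adaptors TRAF2 and BCL10, at 0.46 to 0.66. With 1 replicate 2 library left out the list had 2 (without siControl) and 4 (without siSRPX2-1) genes called lower and none higher.

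Complement and coagulation genes were lower in part, and so were 2 acute-phase genes that are in no list. SAA1, an acute-phase protein, had 9.05 and 2.86 CPM in replicate 2 and 64.6 to 186.2 in the others, a log2 difference of -4.35 ± 0.479, and its neighbour SAA2 had 2.24 and 0.217 against 15.0 to 49.0. SAA1 and SAA2 are similar in sequence, and how shared reads were counted is not given in the sources used here. C3, the central complement component, had 838.8 and 793.5 CPM against 3601.3, 4425.4, 3947.8 and 4015.1. That is a log2 difference of -2.29 ± 0.124, and the 2 sets of libraries did not overlap. Over 18 tested complement and coagulation genes 10 were called lower (55.6%) and none higher, against 15.5% and 15.0% over all tested genes. The median was -0.52, and the genes called lower included the inhibitor SERPING1 (-1.93 ± 0.44) and the anticoagulant PROS1 (-0.85 ± 0.116). Without siControl replicate 2 and without siSRPX2-1 replicate 2, 1 and 2 of the 18 were called. SLPI, a secreted protease inhibitor, had 0 reads in both replicate 2 libraries and 0.882 to 2.75 CPM in the others, so it was at least 77.9-fold lower, with 3 reads over both libraries as the floor.

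Antigen presentation and interferon genes were lower in part. Of 17 tested genes of MHC class I presentation 8 were called lower (47.1%) and 1 higher (5.88%), against 15.5% and 15.0% over all tested genes. HLA-E had 174.3 and 163.8 CPM against 340.0 to 414.0, and HLA-B and HLA-C differed by -0.95 and -0.81, with reads that these similar genes may share. The peptide transporter TAP2 was the gene called higher, at 109.9 and 116.1 CPM against 55.8 to 62.2, while its partner TAP1 was not called (-0.24). Among 36 interferon-stimulated genes 10 were called lower (27.8%) and 1 higher (2.78%), with a median of -0.30. GBP2, a guanylate-binding protein, had 9.29 and 8.93 CPM against 58.9 to 95.8, and ISG15, IFIT1 and IFIT3 were not called (0.26, -0.45 and 0.33). With the replicate block 18 interferon genes were called lower and 2 higher, and without siSRPX2-1 replicate 3, 6 were lower and 1 higher. Without siControl replicate 2 no MHC gene and 1 interferon gene were called lower, and without siSRPX2-1 replicate 2 the counts were 2 and 1.

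FOXO targets and genes of starved cells were lower in replicate 2 as a group. Of 26 tested genes 21 were called lower (80.8%, against 15.5% over all tested genes) and none higher, and the median log2 difference was -1.07. CITED2, a co-regulator induced by FOXO factors, had 52.5 and 51.4 CPM in replicate 2 and 155.5, 141.0, 171.6 and 133.3 in the others, a log2 difference of -1.53 ± 0.128. CCNG2, an atypical cyclin linked to cell cycle exit, had 62.9 and 57.3 CPM against 132.3 to 160.6, and PIK3IP1, an inhibitor of PI3K, had 3.32 and 5.42 against 24.1 to 37.6. The replicate 2 libraries were the lowest for all 3 genes. YPEL3 and GABARAPL1, the latter a factor of autophagosome formation, differed by -1.82 ± 0.154 and -1.64 ± 0.121, the muscle-atrophy ligase FBXO32 by -1.19 ± 0.118 and TXNIP, which restrains glucose uptake, by -0.85 ± 0.173. The factors themselves differed by -0.82 (FOXO3, called), -1.02 (FOXO4, called) and -0.77 (FOXO1, not called). BNIP3 was the member with a positive value, 0.33, and was not called. Leaving out siControl replicate 2 left 5 genes called lower and leaving out siSRPX2-1 replicate 2 left 8.

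Lysosome and autophagy genes leaned the same way, with 13 of 31 called lower, none higher and a median of -0.42. The share called lower was 41.9%, against 15.5% over all tested genes. The cathepsins CTSB and CTSD had 430.3 and 444.0, and 274.8 and 262.5 CPM, against 888.3 to 1160.0 and 503.9 to 576.3 CPM. The glycogen-degrading enzyme GAA differed by -1.32 ± 0.142 and the membrane protein LAMP2 by -0.67 ± 0.0912, while the transcription factor TFEB was not called (-0.04). With the replicate block 22 were called lower and 1 higher, without siControl replicate 2 1 was called lower, and without siSRPX2-1 replicate 2 5 were.

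Extracellular matrix genes formed the other large group of lower genes. Of 34 tested collagens, laminins and matrix glycoproteins 25 were called lower (73.5%, against 15.5% over all tested genes) and none higher, and the median was -0.66. SPP1, osteopontin, had 394.5 and 297.3 CPM in replicate 2 and 988.5, 860.0, 894.2 and 806.2 in the others, a log2 difference of -1.37 ± 0.122. COL6A1 and COL6A2, chains of collagen VI, differed by -1.10 ± 0.0825 and -1.01 ± 0.0844, the basement membrane chains COL4A5 and LAMB2 by -1.32 ± 0.102 and -1.10 ± 0.0843, and SPARC by -0.90 ± 0.0928. FN1, fibronectin, took 2.37% and 3.48% of all reads in replicate 2 and 3.96% to 5.65% in the others. The laminin chain LAMB3 (-0.02) and tenascin TNC (0.01) were not called. MMP2, a gelatinase, had 166.3 and 211.4 CPM against 458.9 to 619.2, and PLAUR, the urokinase receptor, was higher by 0.77 ± 0.13. Without siControl replicate 2 the matrix list had 7 genes called lower and without siSRPX2-1 replicate 2 it had 9.

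Other lists had calls in both directions, to be read against 15.0% higher and 15.5% lower over all tested genes. Of 31 tested cytokine receptors 9 were called lower and 3 higher, of 11 prostaglandin genes 6 lower and 3 higher, of 21 immediate early genes 6 lower and 3 higher, and of 21 unfolded protein response genes 3 lower and 5 higher. The shares of immediate early genes called higher and of unfolded protein response genes called lower, both 14.3%, were near those over all genes. PTGES, a prostaglandin E synthase, had 0.265 and 0.312 CPM against 0.974 to 3.21, and C5AR1 of the complement list, the receptor of complement fragment C5a, 0.318 and 0.0948 against 1.06 to 6.31. With the replicate block the counts higher and lower were 6 and 13 for cytokine receptors, 6 and 10 for immediate early genes and 12 and 5 for the unfolded protein response. Without siControl replicate 2 these lists together held 1 call, a cytokine receptor called lower, and without siSRPX2-1 replicate 2 they held 1 cytokine receptor and 1 immediate early gene called lower and 1 unfolded protein response gene called higher.

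Several single genes outside these groups stood out. IGFBP3, a binding protein for insulin-like growth factors, had 104.8 and 66.7 CPM in replicate 2 and 323.3 to 616.2 in the others. JUP, plakoglobin of cell junctions, had 29.2 and 24.5 against 94.2 to 118.3, and claudin CLDN1 differed by -1.41 ± 0.153. The simple keratin KRT18 and the integrin ITGA6 were higher, by 0.88 ± 0.122 and 1.10 ± 0.173, but their lists had more calls lower than higher. Of 19 tested epithelial and mesenchymal genes 2 were called higher and 6 lower, among the latter the keratins KRT7 (-1.29) and KRT80 (-0.59). Of 12 tested integrin and CD44 genes 2 were called higher and 3 lower, ITGB8 (-2.03), ITGB5 (-0.59) and ITGAV (-0.53). CLDN1, ITGA6 and ITGAV were also called between replicates 1 and 3, at -0.33, 0.42 and 0.38. SCEL, sciellin of squamous epithelium, had a log2 difference of 2.98 ± 0.824, at 14.5 and 37.4 CPM against 0.545 to 7.07, but it also differed between replicates 1 and 3 (2.78). AC018761, annotated as antisense, had 101 and 92 reads in replicate 2 and 0 in the other 4 libraries, at least 122.7-fold higher with 3 reads over those libraries as the floor. Without strand-aware counting its reads cannot be told apart from those of an overlapping gene. MALAT1, a nuclear long RNA, had 88.0 and 100.7 CPM against 197.2 to 243.6.

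Ribosomal protein, respiratory chain and glycolysis genes had few calls. Of 78 cytosolic ribosomal protein genes 1 was called higher and 2 lower, with a median of -0.03 that turned to 0.03 with library totals as the scaling. Of 72 nuclear respiratory chain subunits 7 were called higher and 1 lower, which became 26 and 3 with the replicate block and 19 and 0 without siControl replicate 1. All 13 mitochondrially encoded mRNAs had negative values (median -0.23) and 2 were called lower, 9 with the block. The 22 glycolysis genes had no call at a median of 0.08, though 13 were higher and 2 lower with the block. The respiratory chain list had 3 calls without siSRPX2-1 replicate 1 and 4 without siSRPX2-1 replicate 3. With either replicate 2 library left out, none of these 4 lists had a call. Of 22 fatty acid synthesis genes 7 were called lower (31.8%) and 2 higher (9.09%), against 15.5% and 15.0% over all tested genes. Their median was -0.07, and 2 were lower and none higher with either replicate 2 library left out.

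Replicates 1 and 3 differed from each other in other groups, and in part in the groups above. In that comparison 1173 genes were called higher in replicate 1 (8.81%) and 972 lower (7.30%), 2145 in all. Of the replicate 2 calls 504 were also called there, which is 12.4% of the replicate 2 calls and 23.5% of the calls between replicates 1 and 3, and both comparisons use those libraries. All 23 hypoxia-induced genes were called higher in replicate 1, at a median log2 difference of 1.03, and 19 of 22 glycolysis genes, at 1.01. The amino acid and integrated stress response list, driven by ATF4, ran the other way with 23 of 33 called lower in replicate 1 and a median of -0.55. Of 18 chemokines and cytokines 5 were called lower in replicate 1 and 2 higher (median -0.41), with IL6 lower at -0.63. Interferon-stimulated genes had 9 of 36 lower and 4 higher. NF-kappaB genes had 6 of 27 lower, NFKBIA among them (-0.41), and 1 higher. The matrix list had 8 of 34 higher and 2 lower, and the FOXO list 5 of 26 higher and 2 lower. In the replicate 2 comparison the hypoxia list had 2 calls, both lower (LOX and MXI1), and a median of -0.14 that was 0.04 with the block, where 6 were higher and 7 lower. It had no call without siSRPX2-1 replicate 1 or without either replicate 2 library. The stress response list had 5, all lower, at a median of -0.23, and 6 higher and 15 lower with the block, against 1 call without siControl replicate 2 and 2 without siSRPX2-1 replicate 2. NUPR1, a stress-induced factor, illustrates the mixture: it had 4.33 and 2.86 CPM in replicate 2, 19.5 and 18.3 in replicate 1 and 95.1 and 74.9 in replicate 3.

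**Figure D4:**
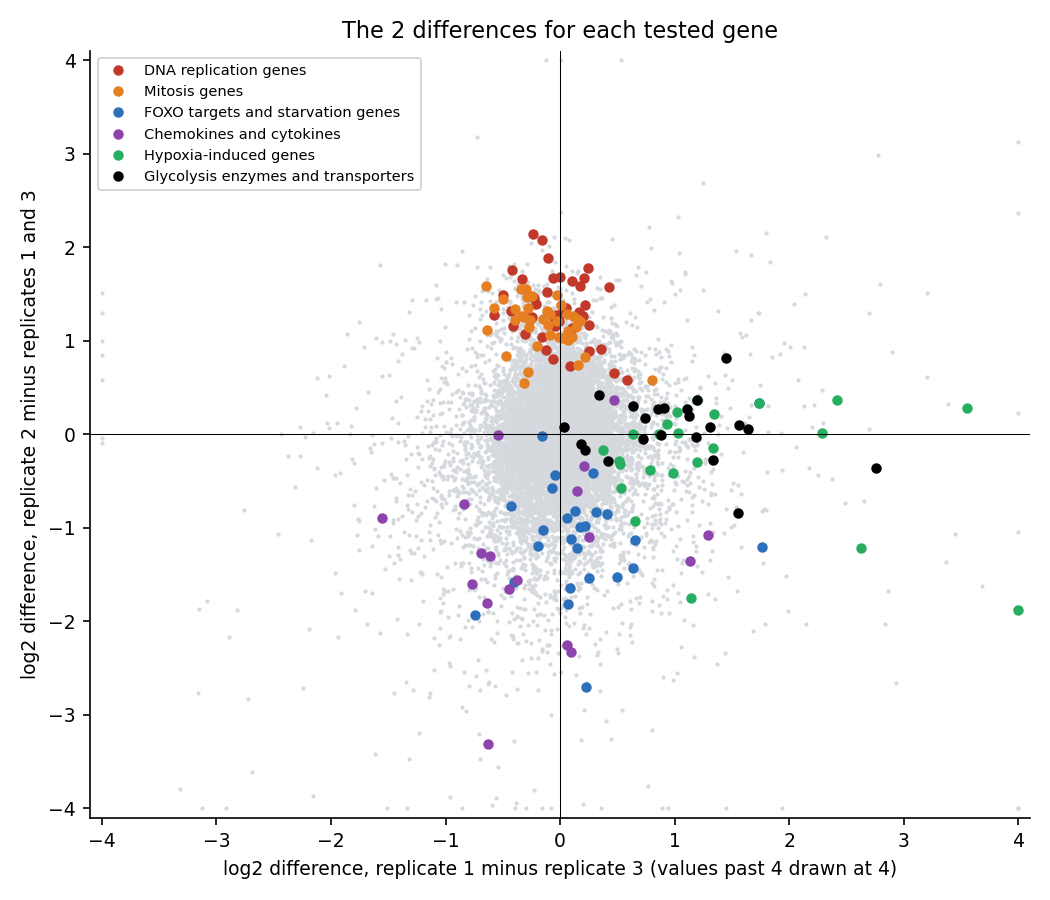
Each point is a tested gene, with the log2 difference of replicate 1 minus replicate 3 on the x axis and of replicate 2 minus replicates 1 and 3 on the y axis, both drawn to at most 4. DNA replication and mitosis genes lie above 0 on the y axis and near 0 on the x axis, most FOXO and chemokine genes below 0 on the y axis, and hypoxia and glycolysis genes to the right.

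**Figure D5:**
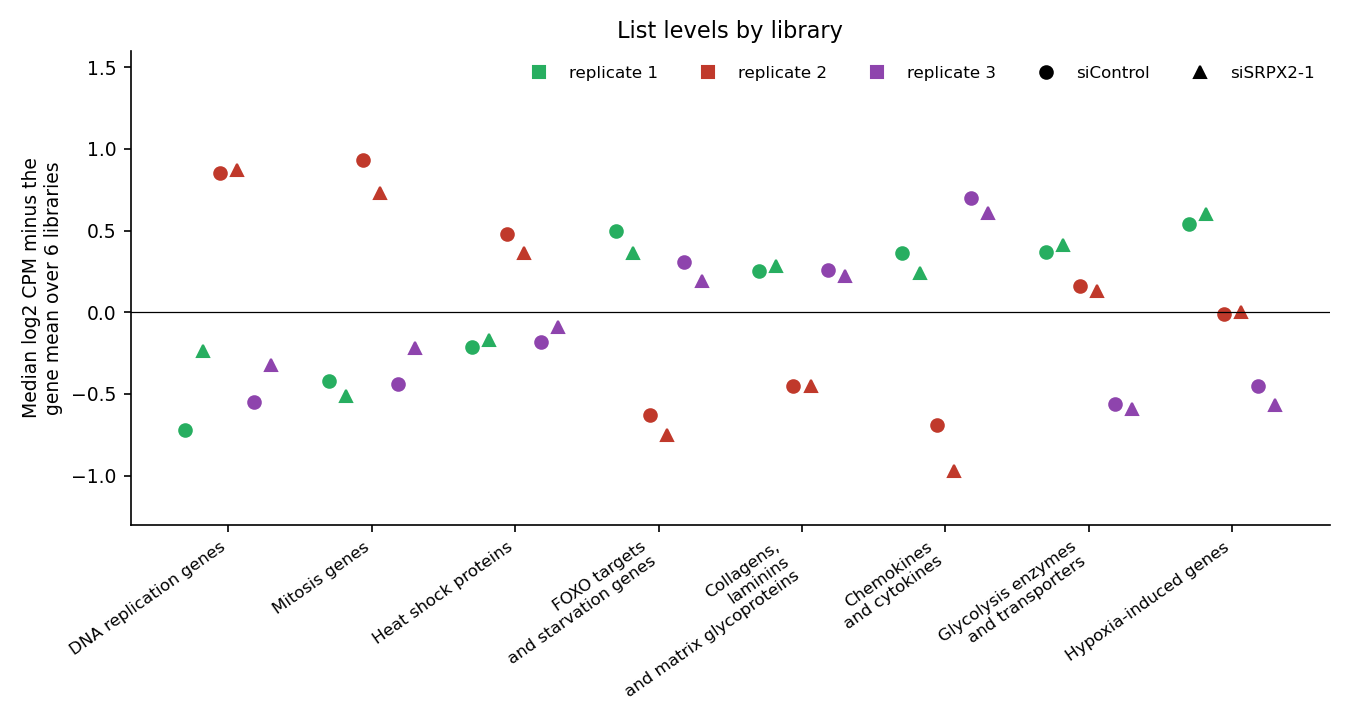
Median over list members of log2 CPM minus the gene's mean over the 6 libraries (y axis) for 8 gene lists (x axis), with 1 point per library, coloured by replicate number, circles for siControl and triangles for siSRPX2-1. Red points lie apart from the other 4 for the first 6 lists and between replicates 1 and 3 for glycolysis and hypoxia.

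The comparison that the choice of replicate 2 did not use is whether the siRNA difference itself was another one in replicate 2. The edgeR interaction of siRNA and replicate 2 called 0 of 13317 genes (0%), with 121 at an unadjusted p under 0.05. DESeq2 called 15, 12 of them with a more positive difference in the siSRPX2-1 group, and the fit with replicate numbers as a block called 81, 42 and 39 by direction. The DNA replication list had a median replicate 2 difference of 1.46 within siControl and 1.11 within siSRPX2-1, and the mitosis list 1.35 and 1.10. No member of either list reached an unadjusted p under 0.05 in the interaction. With 1 replicate 2 library per siRNA, a missing call does not show that the differences were equal.

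The targeted gene was low in all libraries. SRPX2 had 243, 335 and 308 reads in siControl replicates 1 to 3 and 140, 157 and 263 in siSRPX2-1 replicates 1 to 3, below the FPKM filter. In replicate 2 the siSRPX2-1 library had fewer SRPX2 reads than its siControl partner, whereas siSRPX2-1 replicate 3 overlapped the siControl range in unscaled reads. In CPM SRPX2 was at 3.87, 4.55 and 4.32 in siControl and 1.9, 2.17 and 3.75 in siSRPX2-1, so replicate 3 lay just below siControl. RET had 29.2 and 31.8 CPM in replicate 2 and 33.1 to 37.3 in the others. The 2 sets did not overlap, but RET was not called (log2 difference -0.24). CCDC6 was at 0.245 to 0.367 FPKM and was not tested.

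Library measures moved with the pair to some degree. Total reads were 73439682 and 72339717 in replicate 2 and 63824315 to 75828542 in the others, and TMM factors were 1.0331 and 1.0246 against 0.9618 to 1.0106. The 10 most counted genes took 7.32% and 8.33% of reads in replicate 2 and 10.1% to 11.3% in the others, and mitochondrial mRNAs 3.34% and 3.51% against 3.80% to 4.24%. Across 13258 genes the Spearman rho of the replicate 2 difference was -0.027 with transcript length and -0.141 with GC content, a description across genes, and the median GC content was 45.7% for genes called higher and 51.5% for those called lower. The thyroid factor PAX8 was abundant in every library (FPKM 76.9 to 103.0) and thyroglobulin TG was at 0.0867 to 0.172 FPKM. The thyroid list (9 of 15 genes in the table) summed to 87.5 and 92.0 FPKM in replicate 2 and 102.6 to 116.9 in the others. Of the other marker lists, the summed FPKM in replicate 2 and in the other libraries was 2.74 to 3.01 and 4.63 to 9.06 for fibroblasts (5 of 8 genes in the table), 2.52 to 3.08 and 3.50 to 3.82 for adipocytes (5 of 10), 7.80 to 10.7 and 10.5 to 15.5 for leukocytes (5 of 8), 10.3 to 15.7 and 16.0 to 35.9 for hepatocytes (6 of 6), 1.77 to 2.54 and 0.367 to 0.679 for keratinocytes (2 of 6), 0.0627 to 0.0998 and 0.0734 to 0.148 for endothelium (4 of 6) and 0.199 to 2.64 and 0.186 to 3.25 for neuroendocrine cells (7 of 7). COL3A1 and PDGFRA were at 0 in 5 and 4 libraries, PTPRC in 4 and TP63 in 5. Single genes carried most of several sums. SFN had 1.77 and 2.54 FPKM in replicate 2 against 0.367 to 0.668, SERPINA1 12.7 and 7.97 against 14.2 to 30.7, and LUM 2.5 and 2.43 against 4.16 to 7.6. PAX8 made up most of the thyroid sum. CALCA, the largest neuroendocrine value, was at 0 in 3 libraries. APOB of the hepatocyte list, at 0.392 and 0.35, lay within the others (0.206 to 0.417). The part of these library measures and markers in the results was not tested, and in bulk RNA a change in the share of cells and in the RNA per cell cannot be told apart.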

How the data were processed

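RNA from 3 siControl and 3 siSRPX2-1 samples of TPC1 cells was isolated with Trizol and sequenced on an Illumina NovaSeq instrument. The authors deposited raw read counts per gene, and they computed the deposited FPKM using ballgown after StringTie (2.1.6). Which aligner, build, annotation and counting step came before, and whether strand was used, is not given in the sources read here. Of 30496 gene IDs found in GENCODE 29, 30437 start within 100000 bases of its GRCh38 positions. Libraries held 63824315 to 75828542 reads, and 0 per-sample columns could not be mapped to a sample.

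Genes with a mean of at least 0.5 FPKM were fitted on the counts with edgeR 4.0.16 (R 4.3.3), TMM scaling and the quasi-likelihood test, with siRNA and replicate 2 as terms and Benjamini-Hochberg adjustment over all 13317 genes at 0.05. Log2 differences are replicate 2 minus replicates 1 and 3. Their SE was derived from the test, as the size of the log2 difference over the square root of its F statistic. The interaction of siRNA and replicate 2 and the difference of replicates 1 and 3 were fitted on the same genes. limma 3.58.1 on log2(FPKM + 1) and DESeq2 1.42.0 were alternatives, as were other filters and scalings, each library left out, and a replicate block. The fits were tested on simulated data in which libraries varied independently, so that test does not cover effects shared by libraries of the same number.

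The members and gene lists were chosen with earlier results of these data known. Genes were named by rule: SRPX2, RET and CCDC6, the 10 higher and 10 lower genes with the largest difference outside the range of the other libraries, as many again where the mean FPKM was 10 or more, and from every list at most 6 members, taken by smallest p. Other list members named in the text were chosen after their values were seen.

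The replicate numbers are shared by both siRNA groups. Deviations from the group means correlated between same-numbered libraries at 0.565, 0.748 and 0.619 for replicates 1, 2 and 3. Between different numbers the correlation was at most 0.078. The replicate block and the comparison of replicates 1 and 3 use the numbers to pair the samples. The main fit and the interaction do not, and of the numbers hold only replicate 2 as a term. That pairing comes from the data, since the labels do not say what a number marks, and p-values measure the spread between these samples.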

Additional observations from a re-analysis of the deposited data

How the results depend on the processing

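The count of 4062 genes called between replicate 2 and the other libraries became 6778 with the replicate block, which held all 4062, and 1118 where a fold above 2 was also required. With each library left out in turn it ranged from 276 (without siControl replicate 2) to 4250 (without siControl replicate 1). The interaction count of 0 became 81 with the replicate block and 15 with DESeq2, and ranged from 0 to 4 with replicates 1 and 3 left out in turn. With a replicate 2 library left out the interaction has no value. Among genes called both in the main fit and in an alternative, none changed direction, and no called direction of the 276 named genes reversed. Genes called in the main fit alone were otherwise not checked for direction. Of 546 list medians under alternatives, 430 moved by less than the spread of the list over the replicate 1 and 3 libraries of both siRNAs together. The other 116 moved further. Of 3036 tested values for 276 named genes, 2568 stayed on their side of the threshold, 65 passed it and 403 no longer did, and those 403 concern 176 genes. Within 1 siRNA group alone there is no test, and 393 of 552 values moved by less than the spread between replicates 1 and 3 within the siRNA groups. The causes were not tested. With 1 replicate 2 library per siRNA, the interaction rests on single libraries, and for genes of a few reads, such as SLPI, the counts limit precision.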

Other observations

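KEGG pathways gave values for groups that the gene lists do not hold. They were chosen after the values were seen, among 290 pathways with at least 10 tested members, and the counts are descriptions of the same contrast, beside 15.0% called higher and 15.5% called lower over all tested genes. Ribosome biogenesis had 47 of 72 tested genes called higher in replicate 2 and none lower, at a median log2 difference of 0.51, with DKC1, a pseudouridine synthase subunit, and the exportin XPO1 among them. The proteasome had 27 of 42 called higher and 1 lower at a median of 0.53, including the regulatory subunits PSMD1 and PSMD14. Spliceosome genes had 70 of 128 called higher and 2 lower at a median of 0.39, and RNA transport 71 of 143 higher and 3 lower. DNA repair pathways that share members with replication were higher as well, with 24 of 38 genes of homologous recombination and 16 of 22 of mismatch repair. Other pathways leaned lower. Notch signaling had 14 of 38 genes called lower and 1 higher at a median of -0.2, and the peroxisome 19 of 62 lower and 2 higher at -0.23. For replicate 1 minus replicate 3 the medians of ribosome biogenesis, proteasome and spliceosome were -0.06, 0.13 and -0.03.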
